A study of Mus musculus with 67 samples.

Results

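Complement and coagulation factors are plasma proteins that the liver secretes, and 35 of their genes are described here in mouse liver. The genes were taken by symbol as rows of the deposited table of FPKM (fragments per kilobase of exon, scaled to the size of the library), which gave 35 of 45808 gene rows: 19 complement genes with their regulators and 16 genes of coagulation, its inhibitors and fibrinolysis. All 35 averaged at least 1 FPKM over the libraries and were tested. The study sampled liver mRNA around the day, by zeitgeber time (ZT, hours after lights on), in C57BL/6 mice aged 24 weeks after 12 weeks on a high-fat diet. Food was given within a daily window (time-restricted feeding, TRF) or at all times (ad libitum, AL), and the sources used here do not give the hours of that window. There were 8 groups. Rev-erbα/β-liverdoubleKO (ReverbLDKO), a liver knockout of the clock repressor genes Nr1d1 and Nr1d2, and Cry1Cry2 double KO (CryDKO), which lacks both cryptochrome repressors by its label, had 8 TRF and 8 AL libraries each, 1 at every 3 h from ZT3 to ZT24. Bmal1-liverKO (Bmal1LKO), in which the activator gene of the clock, Arntl, is deleted in liver, had 6 TRF and 6 AL libraries, 1 at every 4 h from ZT4 to ZT24. WT had 11 TRF and 12 AL libraries at those same 6 times, with 1 TRF library at ZT12 and 2 elsewhere. The sources used here do not name the promoter that drives Cre in the liver knockouts, and nothing in the labels says whether each library is 1 animal. The p-values therefore speak of the spread among libraries, which may be technical.

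Complement is a cascade of proteases and pore-forming proteins that marks and lyses microbes: mannose-binding lectins and the C1 proteases start it, C3 carries it, and the terminal components assemble into the membrane attack complex. Coagulation is a second cascade, in which vitamin K-dependent proteases and their cofactors, or the contact factors, lead to thrombin and fibrin, held in check by serpins and protein C and undone by plasmin. Hepatocytes make most of these proteins, several of them rise in the acute-phase response, and some are known to differ between male and female mouse liver.

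Library facts that touch the results are few. Recovered depth was 9.14 to 36.09 M reads per library, and FPKM summed to 386198 to 1097495, so the deposited values do not share 1 total. Hepatocyte markers dominated all groups, with group medians of their summed level from 37816 to 70423 FPKM over 10 genes, while those of Kupffer, sinusoidal endothelial, stellate, bile duct and adipocyte markers ran from 2.30 to 267 FPKM. Pancreas markers had median sums under 1 FPKM in every group but reached 3408 FPKM in 1 WT AL library. FPKM of the targeted genes covers all exons, and which exons were removed is unknown here, so these levels cannot serve as a check of the labels: Arntl was at 2.00 to 7.09 FPKM in Bmal1LKO and 0.416 to 12.6 in WT, Cry1 at 6.65 to 14.3 in CryDKO and 1.66 to 23.0 in WT, and Nr1d1 at 4.82 to 71.8 in ReverbLDKO and 0.122 to 33.3 in WT. Directions below are therefore those of libraries labelled CryDKO and ReverbLDKO. In bulk liver, fewer cells of a type and less RNA per cell cannot be told apart.

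The 35 genes spanned a wide range of levels on the FPKM scale, which divides by exon length. Vtn, the gene of vitronectin, averaged 1192 FPKM over the 67 libraries, C3 averaged 1163 and Plg, the plasminogen gene, 976. At the other end Cfb, the factor B gene, averaged 3.16 FPKM, Klkb1, the plasma prekallikrein gene, 7.19 and C2 8.84. Summed over the 35 genes, FPKM had a median of 11661 in libraries labelled ReverbLDKO under TRF (10189 to 15752), against 9103 under AL (7429 to 9944), and these ranges did not overlap. As a percent of all FPKM of a library the sums were 2.37 to 3.19 under TRF and 1.92 to 2.43 under AL, which overlap. The median sums were 10372 and 9744 in CryDKO, 10786 and 9654 in Bmal1LKO, and 8985 and 9796 in WT, TRF given before AL in each, with overlapping ranges.

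**Figure D1:**
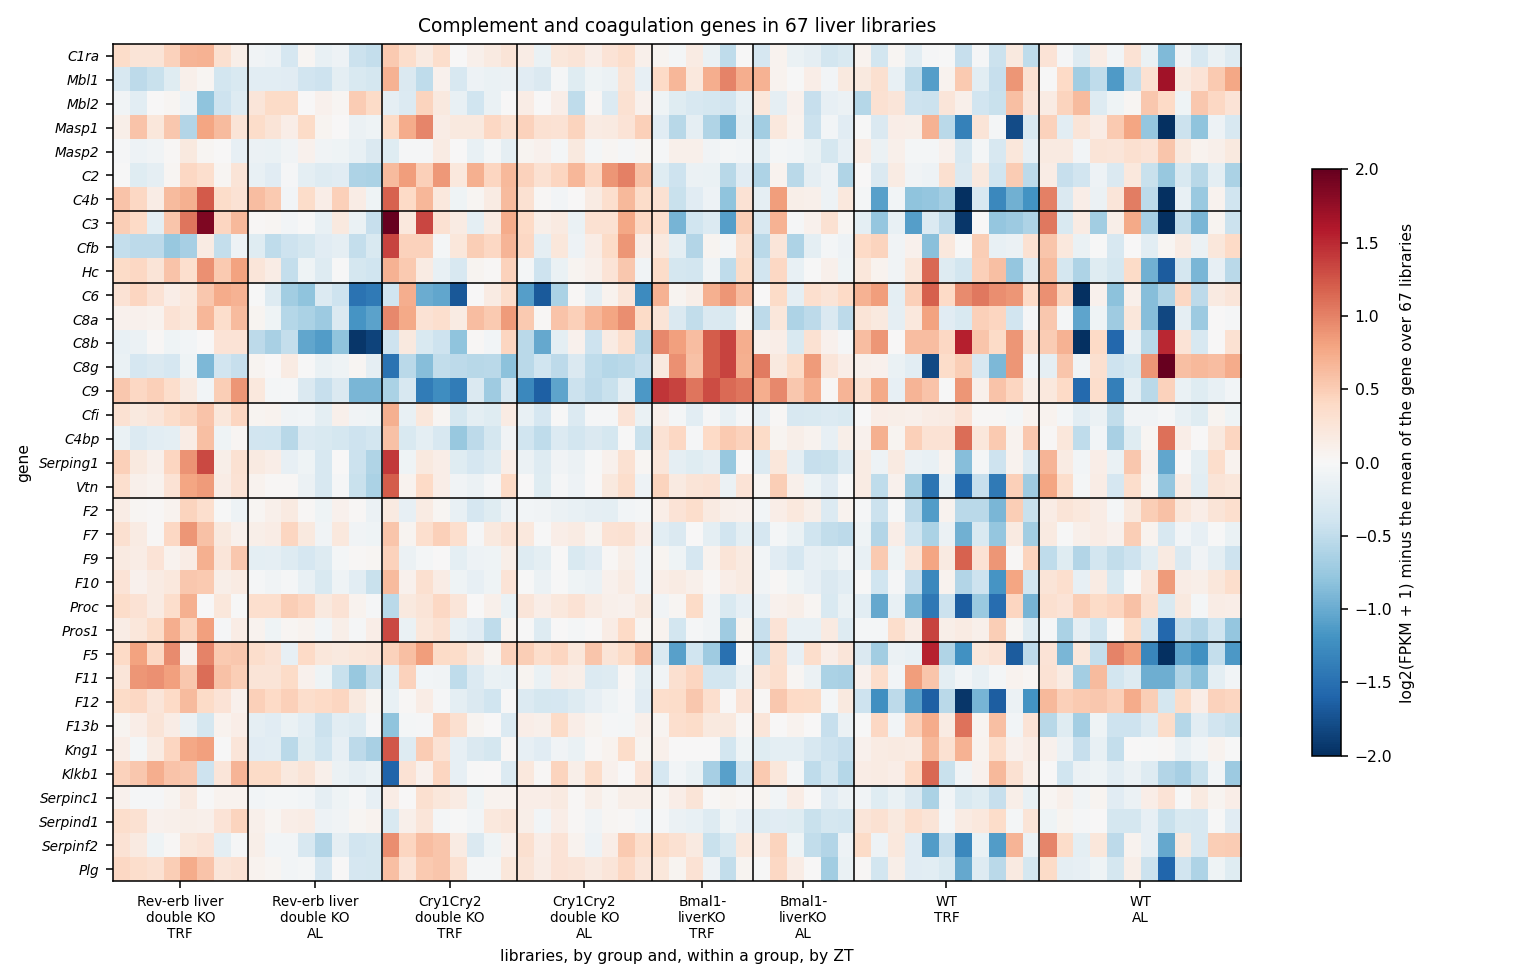
Level of each of the 35 genes (rows, by role) in each of 67 libraries (columns, by group and ZT) as log2(FPKM + 1) minus the mean of the gene over all libraries, with colours held at -2 and 2. C9 stands out as high in Bmal1LKO and low in CryDKO, C6, C8a and C8b are low in the last 2 libraries of ReverbLDKO AL, and the CryDKO TRF library at ZT3 stands apart for C3, Serping1 and Pros1.

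In libraries labelled ReverbLDKO a set of these genes was higher under restricted feeding. Among those passing, the terminal complement genes C6, C8b and C8a differed most, and F11 had the smallest p. Of the 35 genes 12 were higher under TRF than AL, where 1.09% of all 9958 genes tested were higher, and 1 was lower, where 2.25% of all genes were lower. The median log2 difference of the 35 was 0.37, against -0.03 over all genes tested. Scaled to the same sum of FPKM, 5 of the 12 passed (C6, C8b, C9, F11 and Kng1), where 0.522% of all genes were higher, and the medians were 0.23 and -0.14. Values here and below are log2 differences of the 24-h level ± SE on the log2(FPKM + 1) scale, with p from limma after Benjamini-Hochberg adjustment over all genes.

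Among the 5 genes of C6, C8 and C9, which form the pore, 4 rose. C6 had 91.0 to 140.4 FPKM with a median of 107 under TRF and 29.2 to 82.8 with a median of 56.5 under AL (n = 8 each), a difference of 1.08 ± 0.25 (limma adjusted p = 0.00674). C8b, the C8 beta chain gene, had 177 to 238 FPKM with a median of 192 under TRF and 50.3 to 139.8 with a median of 104 under AL, a difference of 1.07 ± 0.27 (limma adjusted p = 0.0185). For both genes every TRF library lay above every AL library. C8a, the C8 alpha chain gene, had 315 to 477 FPKM with a median of 361 under TRF and 132 to 312 with a median of 198 under AL, differing by 0.87 ± 0.18 (limma adjusted p = 0.00317). C9, whose product polymerises into the pore, had 441 to 849 FPKM with a median of 628 under TRF and 244 to 532 with a median of 376 under AL, differing by 0.75 ± 0.20 (limma adjusted p = 0.0231). C8a did not overlap between the feedings, and C9 did but was higher under TRF at 8 of 8 times. C8g, the gamma chain gene, did not pass, at 175 to 308 FPKM under TRF and 286 to 366 under AL.

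**Figure D2:**
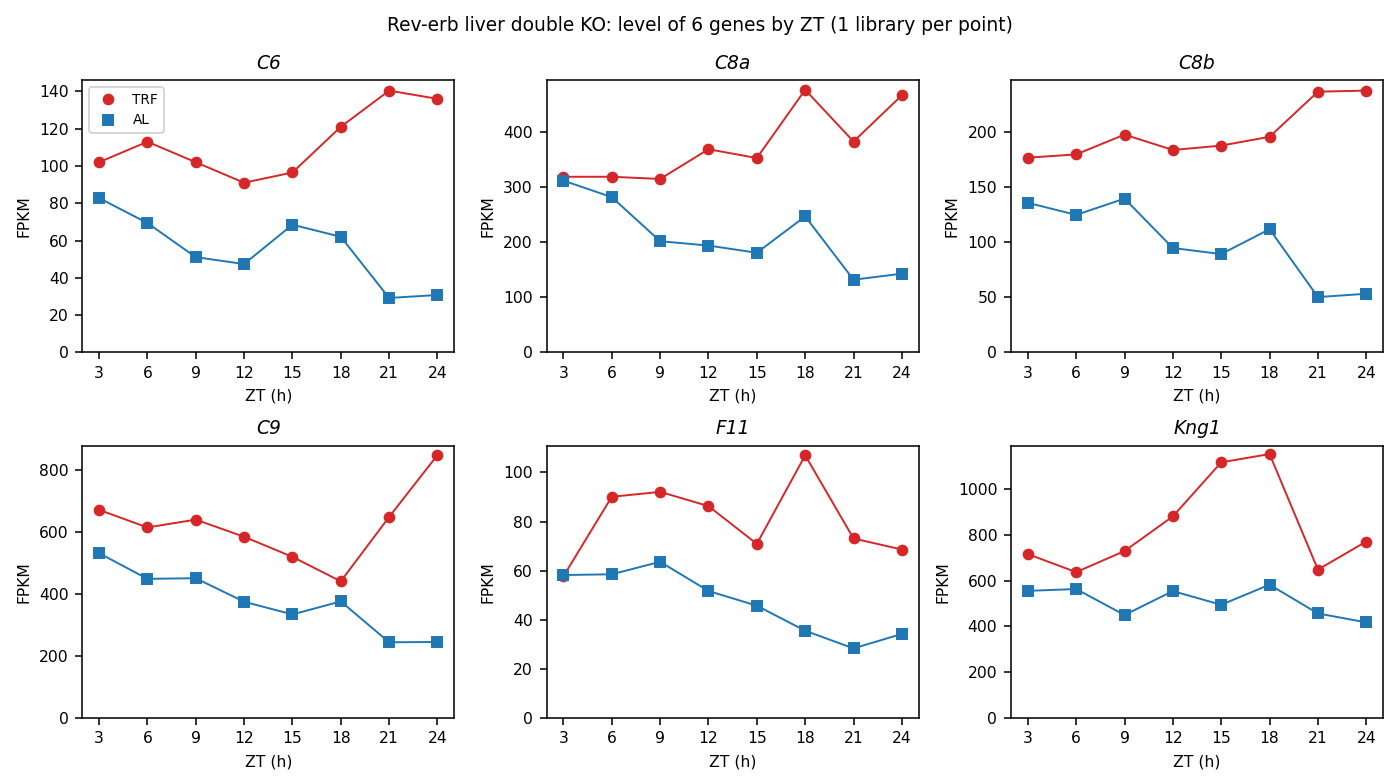
FPKM of 6 genes against ZT in hours in libraries labelled ReverbLDKO, TRF as red circles and AL as blue squares, 1 library per point. C6, C8a and C8b lie higher under TRF at every time, and the AL values of these genes and of C9 are lowest at ZT21 and ZT24.

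The promoters of these 4 genes are shown because the genes moved together. C8a and C8b are neighbours on chromosome 4, and C6 and C9 lie near each other on chromosome 15. The sequences are RefSeq promoters on GRCm38.p6, 250 bases before the start and 50 after it, in the direction of the gene: C6 at chr15:4726960-4727259 (plus strand), C8a at chr4:104876349-104876648 (minus strand), C8b at chr4:104766067-104766366 (plus strand) and C9 at chr15:6445096-6445395 (plus strand). Capitals mark AGGTCA, the core bound by many nuclear receptors, REV-ERB among them, and GTTAAT, the core of the motif of the hepatocyte factor HNF1, on either strand.
C6: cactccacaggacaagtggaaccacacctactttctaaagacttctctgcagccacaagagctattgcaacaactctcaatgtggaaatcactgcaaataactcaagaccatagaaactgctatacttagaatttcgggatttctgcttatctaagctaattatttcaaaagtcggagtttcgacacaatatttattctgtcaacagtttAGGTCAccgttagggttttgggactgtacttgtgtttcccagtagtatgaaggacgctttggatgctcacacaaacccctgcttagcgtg
C8a: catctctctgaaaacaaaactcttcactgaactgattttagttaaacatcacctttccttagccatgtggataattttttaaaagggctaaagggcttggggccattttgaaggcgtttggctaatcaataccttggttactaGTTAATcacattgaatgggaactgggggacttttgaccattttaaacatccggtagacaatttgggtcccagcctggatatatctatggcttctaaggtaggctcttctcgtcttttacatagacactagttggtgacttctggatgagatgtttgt
C8b: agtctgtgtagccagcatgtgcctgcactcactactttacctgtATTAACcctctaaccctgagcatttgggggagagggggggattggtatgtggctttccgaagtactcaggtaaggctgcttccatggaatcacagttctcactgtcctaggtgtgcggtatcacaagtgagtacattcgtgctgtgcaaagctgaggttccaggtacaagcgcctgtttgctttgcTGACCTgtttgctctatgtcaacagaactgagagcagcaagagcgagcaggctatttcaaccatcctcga
C9: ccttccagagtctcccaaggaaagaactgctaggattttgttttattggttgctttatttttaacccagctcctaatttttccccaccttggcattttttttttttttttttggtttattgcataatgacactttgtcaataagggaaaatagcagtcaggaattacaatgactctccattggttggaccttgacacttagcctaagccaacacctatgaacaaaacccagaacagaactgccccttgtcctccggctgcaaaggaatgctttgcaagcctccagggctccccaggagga

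A promoter was matched for 26 of the 35 genes. AGGTCA on either strand was in 11 of the 26 (42.3%) and in 16.3% of all 32851 promoters of this length, and GTTAAT in 8 of 26 (30.8%) and 7.10% of all. The C/EBP motif TTGCNNAA was in 7 of 26 (26.9%) and 10.8% of all, the D-box TTANGTAA in 1 of 26, that of F13b, and 2.32% of all, and the E-box CACGTG in 0 of 26 and 7.15% of all. C6 held 1 AGGTCA, C8a 1 GTTAAT, C8b 1 of each, and C9 neither but 1 C/EBP match. The shares of the 26 count genes with a match in any of their promoters. Those of all count single promoters, and not only of genes expressed in liver, so the 2 are not like for like. A match is a description, not a site.

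Some complement genes outside C6, C8 and C9 also passed. C1ra, which encodes a C1r protease of the classical pathway, had 64.8 to 96.5 FPKM under TRF and 42.5 to 61.3 under AL, a difference of 0.60 ± 0.11 (limma adjusted p = 0.000435). Hc, the C5 gene, had 220.2 to 350.0 FPKM under TRF and 132 to 218 under AL, a difference of 0.68 ± 0.19 (limma adjusted p = 0.0352). Both genes had every TRF library above every AL library. Mbl2, a mannose-binding lectin gene, was the single gene that fell: it had 212 to 381 FPKM under TRF and 373 to 527 under AL, a difference of -0.48 ± 0.14 (limma adjusted p = 0.0489), and was higher under TRF at 1 of 8 times. C3, the central component, had 878 to 3656 FPKM with a median of 1451 under TRF and 732 to 1147 with a median of 982 under AL, and at 0.73 ± 0.30 did not pass (limma adjusted p = 0.179). Of the 4 regulators, Serping1, the C1 inhibitor gene, rose by 0.64 ± 0.17 and Cfi, the gene of the factor I protease that inactivates C3b, by 0.38 ± 0.08. Cfi was at 459.9 to 595 FPKM under TRF and 351 to 429 under AL, again without overlap, while Serping1 at 396 to 925 and 242 to 416 overlapped.

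In coagulation the same contrast reached 4 genes. F11, the factor XI gene, had 57.7 to 107 FPKM with a median of 79.7 under TRF and 28.3 to 63.6 with a median of 48.7 under AL, a difference of 0.80 ± 0.13 (limma adjusted p = 6.54e-05). Kng1, the gene of kininogen, the source of bradykinin, had 638 to 1155 FPKM under TRF and 418 to 583 under AL, a difference of 0.68 ± 0.12 (limma adjusted p = 0.000301). F11 overlapped between the feedings and was higher under TRF at 7 of 8 times, and Kng1 did not overlap. Plg rose by 0.55 ± 0.13, with 1115 to 1580.3 FPKM under TRF and 736 to 994 under AL, and F9, the factor IX gene, by 0.44 ± 0.11, with 128 to 199 and 95.9 to 125 FPKM. Neither of these overlapped between the feedings. F12, Proc, F2 and Mbl1, all within 0.08 of 0 on the log2 scale, did not pass.

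The ReverbLDKO result rested partly on 2 AL libraries, those at ZT21 and ZT24. These were the lowest AL libraries for C6 (29.2 and 30.8 FPKM) and C8b (50.3 and 53.3), and they also held the highest Cyp2b9, a female-biased gene, at 156 and 158 FPKM, against 0.173 to 5.17 in TRF libraries and 1.19 to 75.5 in the other AL libraries. Moxd1, a male-biased gene, was at 0.332 and 1.06 FPKM there and at 23.1 to 62.0 in the other AL libraries. Over the whole lists, the female-biased sum of 8 genes was 33.1 to 275 FPKM (median 37.2) under TRF and 66.5 to 467 (median 268) under AL. The male-biased sum of 9 genes was 4634 to 7113 (median 5597) under TRF and 1074 to 4885 (median 3423) under AL. Under TRF 0 of the 5 female-biased genes tested were higher and 4 lower, where 1.09% and 2.25% of all genes were, with a median log2 difference of -1.62. For the 9 male-biased genes it was 3 higher and 0 lower, with all 9 above 0 and a median of 1.09. The AL libraries at ZT21 and ZT24 were left out after seeing the data. Without them 1 of the 35 genes was higher (F11, 0.70, limma adjusted p = 0.014), where 0.0703% of all genes were, and 0 were lower. C6 then differed by 0.71, C8b by 0.76, C8a by 0.56 and C9 by 0.53 (limma adjusted p = 0.27 to 0.404), and the median of the 35 genes was 0.32. Summed hepatocyte markers were 52621 to 78211 FPKM under TRF and 50757 to 57418 under AL. The part of sex-biased expression or of hepatocyte content in the result was not tested.

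Of 12 acute-phase genes 1 was higher in this contrast (Orm1) and 0 were lower. By direction, 11 of the 12 lay above 0 and 1 below, with a median log2 difference of 1.1, against 0.37 for the 35 genes. The part of the acute-phase genes in the result was not tested. The summed level of the 12 was 8372 to 81305 FPKM under TRF (median 10549.9) and 6872 to 10262 under AL (median 8255). Saa1, an acute-phase gene, was high in 2 TRF libraries. It was at 9196 and 16119 FPKM in those at ZT15 and ZT18 and at 76.7 to 346 in AL libraries. Without these 2 libraries and the CryDKO TRF library at ZT3, 7 of 35 genes were higher (C1ra, C6, C8a, C9, Cfi, F11 and Kng1), where 0.673% of all genes were, and 0 were lower. Those no longer passing differed by 1.13 (C8b), 0.67 (Hc), 0.47 (Plg), 0.42 (Serping1) and 0.38 (F9), with limma adjusted p from 0.0519 to 0.175. Leaving out single libraries of any group ended the call of C8b for 3 of them (AL ZT12, ZT21 or ZT24), of F9 for 2, Serping1 for 4, C9 for 7, Hc for 10 and Mbl2 for 43. C1ra, C6, C8a, Cfi, F11, Kng1 and Plg passed without any 1 library.

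**Figure D3:**
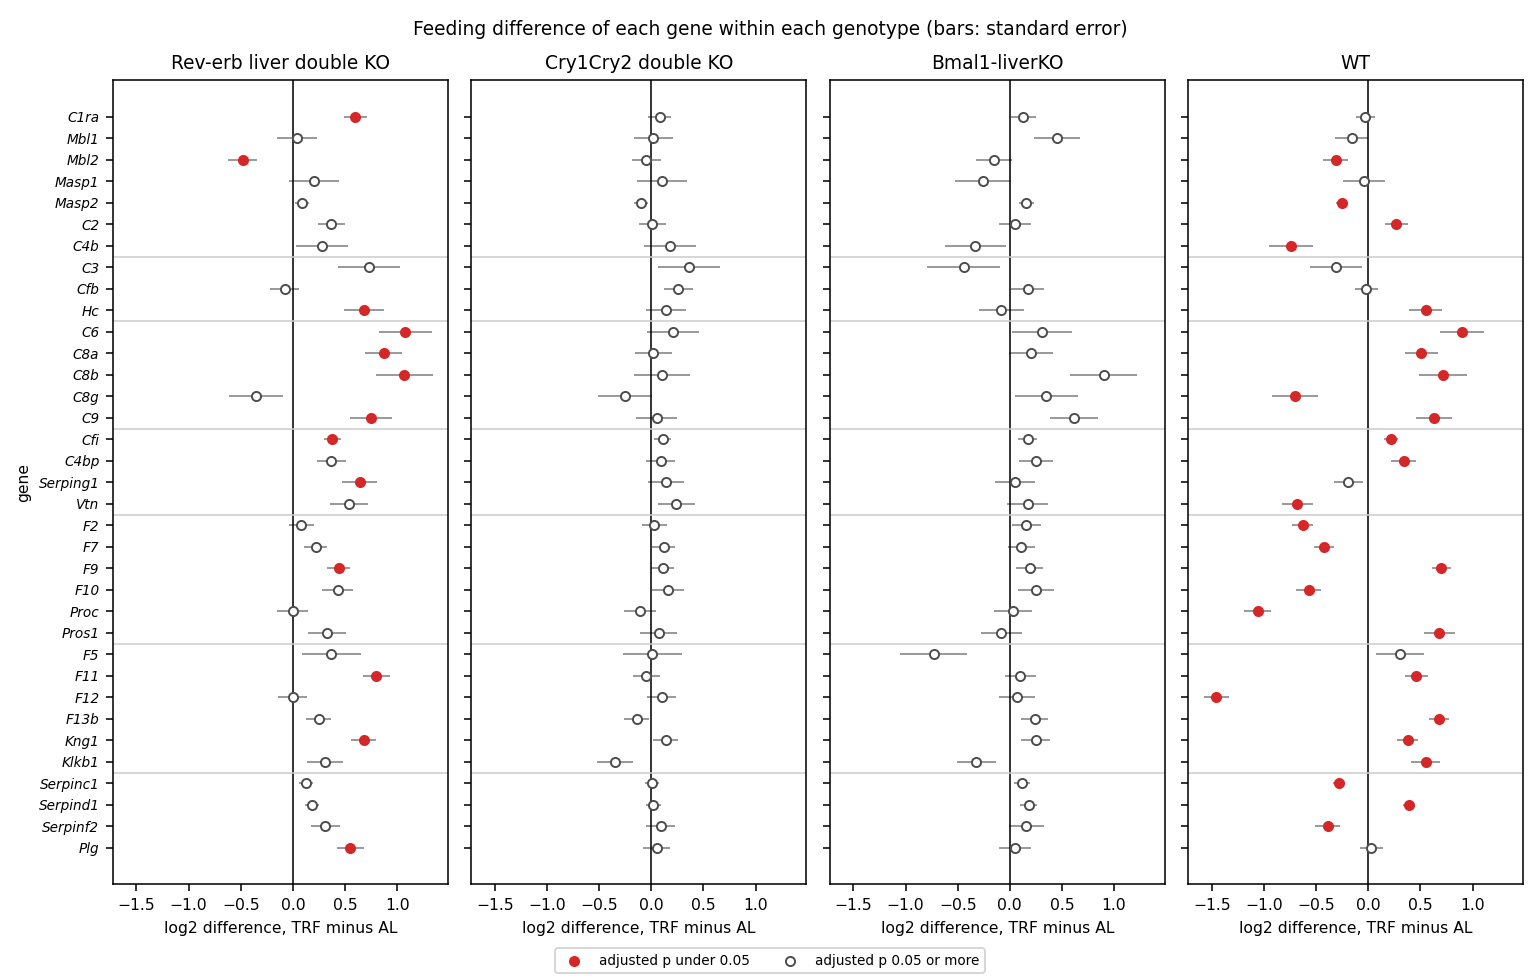
Log2 difference of each gene (TRF minus AL, with SE bars) within each of 4 genotypes, filled red where the limma adjusted p was under 0.05. The red points of ReverbLDKO lie right of 0 except Mbl2, CryDKO and Bmal1LKO have no red point, and WT has 15 to the right and 12 to the left.

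In CryDKO no gene passed for feeding. Of the 35 genes 0 were higher, where 0% of all genes were, and 0 were lower, where 0.0201% were, and 1 gene, Klkb1 at -0.35 ± 0.17, had an unadjusted limma p under 0.05. In Bmal1LKO 0 were higher and 0 lower, where 0.0201% of all genes were called in each direction, and 5 had an unadjusted limma p under 0.05. C8b had 301 to 501 FPKM under TRF and 158 to 241 under AL in Bmal1LKO (n = 6 each, limma adjusted p = 0.33). C9 had 967 to 1236 FPKM under TRF and 466 to 900.1 under AL (limma adjusted p = 0.36). Neither gene overlapped between these groups, yet at 0.90 ± 0.32 and 0.62 ± 0.23 neither passed over all genes. The median log2 difference of the 35 genes was 0.08 in CryDKO and 0.16 in Bmal1LKO, against 0.02 and 0.03 over all genes.

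In WT most of the genes differed with feeding, in both directions. Of the 35 genes 15 were higher under TRF, where 28.6% of all genes were, and 12 were lower, where 35.5% were, which makes 42.9% and 34.3% of the 35. Other measures moved with this contrast. Mitochondrial genes took a median of 10.1% of FPKM in WT TRF (4.26 to 13.9) and 5.15% in WT AL (4.11 to 7.28). Of 5 erythroid markers 0 were higher and 3 lower under TRF, of 8 sinusoidal endothelial markers 0 and 4, of 6 stellate cell markers 3 and 1, of 8 Kupffer cell markers 3 and 1, and of 9 male-biased genes 5 and 0. Summed erythroid markers were 131 to 889.6 FPKM under TRF and 148 to 3085 under AL, and endothelial ones 38.4 to 83.9 and 57.7 to 163. Their part in the WT differences was not tested. F12, the factor XII gene that starts the contact pathway, had 45.7 to 164 FPKM with a median of 83.5 under TRF (n = 11) and 139.8 to 298 with a median of 249 under AL (n = 12), a difference of -1.46 ± 0.12 (limma adjusted p = 3.6e-14). Proc, the gene of the anticoagulant protease protein C, had 73.3 to 312 FPKM with a median of 123 under TRF and 188 to 348 with a median of 286 under AL, a difference of -1.06 ± 0.13 (limma adjusted p = 1.35e-09). C6 had 72.4 to 193 FPKM with a median of 150.0 under TRF and 19.0 to 158 with a median of 88.8 under AL, a difference of 0.90 ± 0.21 (limma adjusted p = 0.000241). All 3 overlapped between the feedings, and F12 was lower under TRF at 6 of 6 times. Next among those lower under TRF were C4b (-0.74 ± 0.21), C8g (-0.70 ± 0.22), Vtn (-0.68 ± 0.15) and F2, the prothrombin gene (-0.63 ± 0.10). Next among those higher were C8b (0.72 ± 0.23), F9 (0.70 ± 0.09), F13b, the factor XIII B chain gene (0.68 ± 0.10), Pros1, the gene of the protein C cofactor protein S (0.68 ± 0.15), and C9 (0.63 ± 0.17).

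The WT feeding difference ran with the GC content of the genes. GC content was taken over the longest transcript of each gene and ran from 39.0 to 58.5%. Across the 35 genes it had a correlation of -0.84 with the WT difference, against -0.28 in ReverbLDKO, 0.23 in CryDKO and -0.10 in Bmal1LKO. Genes share the libraries, so this is a description. Of the 14 genes at 52% GC or more, 12 lay below 0 with a median of -0.49, and the 7 genes at 46% or less all lay above 0 with a median of 0.63. Over all genes, the slope of expression on GC content (log2 for each 10 points of percent GC) was at a median of -0.516 in WT TRF libraries and 0.302 in WT AL libraries, and -0.0113 to 0.122 in the mutant groups. Within WT TRF it was -0.746 in libraries numbered replicate 2, where F12 had a median of 66.2 FPKM, and -0.106 in those numbered replicate 1, where F12 had 124. Both medians of F12 lay below those of AL, 245 and 250.3 FPKM.

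After correction of each library for GC content and exon length, 9 genes were higher in WT under TRF and 6 lower, where 20.7% and 17.8% of all genes were. C6 (0.73) and C8b (0.70) remained among the higher and F12 (-0.45) and Proc (-0.28) among the lower, and the correlation with GC content was -0.31. C9 (0.32), F9 (0.18), Pros1 (0.32), C4b (-0.18), C8g (-0.16) and Vtn (-0.03) no longer passed. F7, the factor VII gene, turned round, with 0.20 after correction and -0.42 before, as did Serpinf2, the gene of the plasmin inhibitor (0.21 after, -0.39 before), and C4bp, a gene of the C4b-binding protein (-0.19 after, 0.34 before), and none of the 3 passed after it (limma adjusted p = 0.122 to 0.143). Leaving out single libraries ended the WT calls of Mbl2 and C2. In ReverbLDKO the same correction left 16 genes higher and 0 lower, where 2.77% and 2.70% of all genes were. The part of GC content in the WT differences was not otherwise tested.

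**Figure D4:**
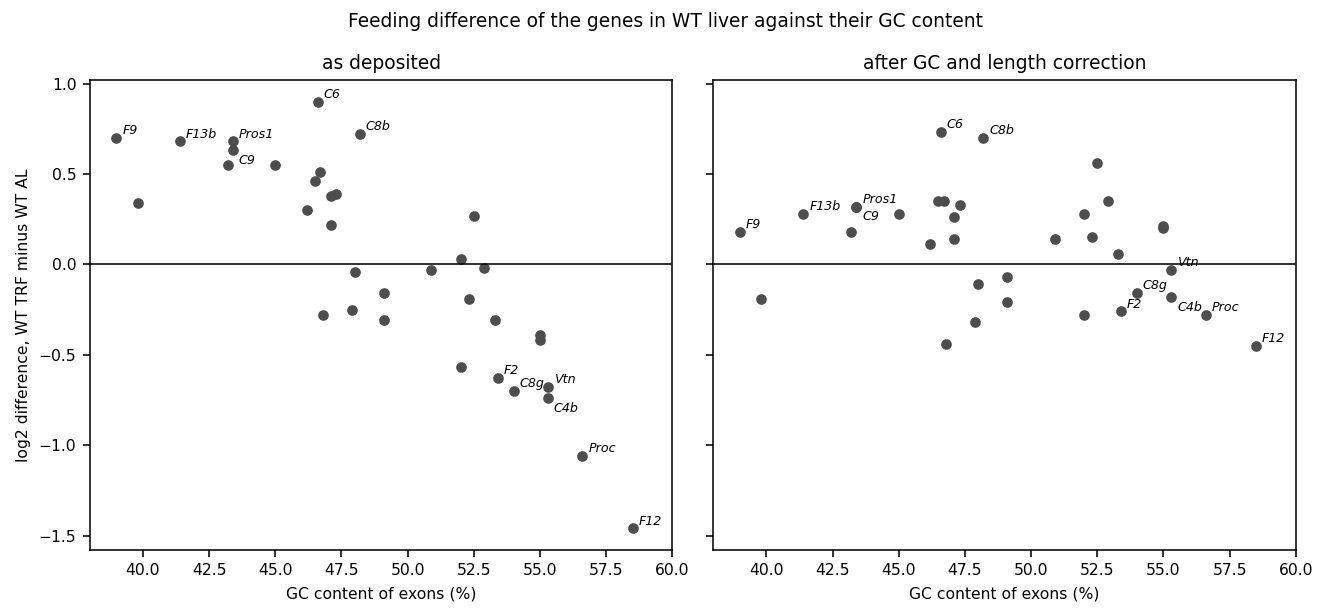
WT log2 difference (TRF minus AL) of each of the 35 genes against the GC content of its longest transcript in percent (axis label: exons). Values are as deposited on the left and after correction of each library for GC content and exon length on the right. F12 and Proc lie lowest and farthest to the right on the left panel, and the spread of points narrows after correction while C6 and C8b stay highest.

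The feeding difference itself differed between genotypes for 21 of 35 genes, where 47.0% of all genes did, by the limma F test of the interaction. The smallest p belonged to F12 (limma adjusted p = 5.61e-10), which differed by 0.00 ± 0.14 in ReverbLDKO, 0.10 ± 0.14 in CryDKO and 0.07 ± 0.17 in Bmal1LKO and by -1.46 ± 0.12 in WT. Proc (1.18e-05), F2 (7.18e-05), Vtn (0.000106) and F10 (0.000107) followed. After the GC correction 12 genes passed, 10 of them among the 21.

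Against WT, the pore gene C9 was lower in libraries labelled CryDKO and higher in Bmal1LKO, each mutant taken as the mean of both feedings. All 3 comparisons share the WT libraries, and the sampling times of CryDKO and ReverbLDKO differ from those of WT. In libraries labelled CryDKO 14 genes were higher, where 34.4% of all genes were, and 5 lower, where 30.9% were. C9 had 174 to 378 FPKM under TRF and 148 to 407 under AL in CryDKO, against 412 to 849.6 under TRF and 156 to 634 under AL in WT, a difference of -0.89 ± 0.13 (limma adjusted p = 1.48e-07). Under TRF the CryDKO and WT ranges of C9 did not overlap. C8g (-0.78 ± 0.17), C6 (-0.70 ± 0.16), C4bp (-0.52 ± 0.09) and C8b (-0.49 ± 0.18) were also lower, so 4 of the 5 genes of C6, C8 and C9 fell. C8b no longer passed after the GC correction, and the other 3 did. C8a, at 0.69 ± 0.12, was higher. The summed level of the 8 female-biased genes was 51.3 to 253 FPKM under TRF and 54.7 to 211 under AL in CryDKO, 0.716 to 2.30 and 1.69 to 21.9 in Bmal1LKO, and 4.50 to 113 and 4.30 to 216 in WT. Its part in the genotype differences was not tested.

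Some of the genes that start and amplify complement were higher in CryDKO. Of the 7 genes of the lectin and classical start 4 were higher (C1ra, Masp1, C2 and C4b), where 34.4% of all genes were. Mbl1 (-0.13), Mbl2 (-0.13) and Masp2 (-0.09) did not pass. C3 and Cfb were higher, and Hc did not pass. C2, the protease partner of C4, averaged 13.4 ± 2.10 FPKM under TRF and 13.4 ± 2.55 under AL in CryDKO (SD, n = 8 each), against 8.30 ± 2.09 (n = 11) and 6.70 ± 1.62 (n = 12) in WT, a difference of 0.78 ± 0.08 (limma adjusted p = 1.37e-10). C2 was higher by 0.64 under TRF and by 0.91 under AL, both passing. C3 rose by 0.98 ± 0.20, C4b by 0.83 ± 0.16, F5, the gene of the thrombin-generating cofactor factor V, by 0.81 ± 0.18 and Masp1, a lectin pathway protease gene, by 0.60 ± 0.15. The CryDKO TRF library at ZT3 had 41908 FPKM of Saa1 and 5931 of C3, and without it and the 2 ReverbLDKO libraries high in Saa1 the counts were again 14 and 5. Of 12 acute-phase genes 0 were higher and 7 lower in this contrast, of 9 male-biased genes 1 and 5, and of 8 sinusoidal endothelial markers 5 and 1. Their part was not tested.

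In Bmal1LKO 7 genes were higher than in WT, where 19.6% of all genes were, and 4 lower, where 7.74% were. C9 had 967 to 1236 FPKM under TRF and 466 to 900.1 under AL in Bmal1LKO, against 412 to 849.6 and 156 to 634 in WT, a difference of 0.84 ± 0.14 (limma adjusted p = 1.18e-05). Under TRF no Bmal1LKO library overlapped with WT for C9, and the difference passed within TRF (0.83 ± 0.20) and within AL (0.84 ± 0.20). F12 followed at 0.60 ± 0.10, but at 1.36 ± 0.15 under TRF and -0.16 ± 0.14 under AL, where it did not pass. The others higher were C4b (0.52 ± 0.18), Vtn (0.39 ± 0.13), Mbl1 (0.37 ± 0.14), Plg (0.27 ± 0.09) and Serpinc1, the antithrombin gene (0.12 ± 0.05). Those lower were Mbl2 (-0.27 ± 0.10), Kng1 (-0.27 ± 0.09), Serpind1, the heparin cofactor II gene (-0.23 ± 0.05), and Masp2 (-0.16 ± 0.05). These counts moved with the scaling of libraries: median-of-ratios scaling gave 2 higher and 5 lower, where 13.2% and 11.4% of all genes were, and scaling to the same sum of FPKM 14 and 0, where 46.6% and 3.09% were. Without the TRF library at ZT24 the higher genes numbered 3, and without the AL library at ZT16 they numbered 4. The calls of Mbl1, Mbl2, C4b, Serpinc1 and Plg each ended when some single library was left out. Summed hepatocyte markers were at 35560 to 46988 FPKM under TRF and 36739 to 50274 under AL in Bmal1LKO, against 57949 to 80126 and 61859 to 101986 in WT, without overlap. Of these 10 markers 0 were higher and 3 lower (Alb, Cyp2e1 and Fabp1), and 7 were not called. Their median log2 difference was -0.04, with 5 above 0 and 5 below. Their part in these differences was not tested.

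In libraries labelled ReverbLDKO 16 genes were higher than in WT, where 30.1% of all genes were, and 5 lower, where 27.6% were. C4b rose by 0.93 ± 0.16, C3 by 0.80 ± 0.20, F5 by 0.79 ± 0.18, F12 by 0.66 ± 0.09, Proc by 0.55 ± 0.10 and Masp1 by 0.45 ± 0.15. C8b fell by 0.78 ± 0.18, Cfb by 0.43 ± 0.09, C4bp by 0.43 ± 0.09, Mbl1 by 0.30 ± 0.13 and Masp2 by 0.14 ± 0.04. F12 passed under TRF (1.40 ± 0.13) and did not under AL (-0.07 ± 0.13), and Proc likewise (1.07 ± 0.14 under TRF, 0.02 ± 0.14 under AL). WT TRF was the low group, F12 averaging 229 FPKM in ReverbLDKO TRF against 93.8 in WT TRF, and 228 in ReverbLDKO AL against 242 in WT AL. F5 passed under both feedings. C8b passed under TRF (-0.60 ± 0.26) and AL (-0.96 ± 0.25), whereas C4b (1.44 ± 0.23) and C3 (1.31 ± 0.28) passed under TRF and did not under AL (0.41 ± 0.23 and 0.28 ± 0.27). The interaction test takes the feeding differences of all 4 genotypes together, not those of ReverbLDKO and WT alone. It passed for C4b (limma adjusted p = 0.0214) and did not for C3 (limma adjusted p = 0.0531). After the GC correction it passed for neither (limma adjusted p = 0.218 for C4b and 0.117 for C3). C9, at -0.04 ± 0.13, did not pass. Of 8 Kupffer cell markers 5 were higher and 1 lower in ReverbLDKO, of 8 sinusoidal endothelial markers 5 and 2, of 5 erythroid markers 4 and 0, of 5 female-biased genes tested 4 and 0, of 9 male-biased genes 0 and 5, and of 12 acute-phase genes 1 and 5. Their part was not tested. The GC correction gave 21 members higher and 3 lower, where 27.3% and 29.3% of all genes were. Scaling to the same sum gave 23 higher and 3 lower, where 51.9% and 12.2% of all genes were, and in CryDKO 21 and 4, where 46.3% and 20.5% were. That scaling moved the median of all genes to 0.21 and 0.16, and under it Masp2 was at 0.12 in ReverbLDKO and 0.02 in Bmal1LKO. Leaving out single libraries ended the calls of Mbl1 and Pros1.

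Rhythm over 24 h was tested within each group. By the limma F test of cosine and sine, 11 of 35 genes were rhythmic in WT AL, where 29.7% of all genes were, and 4 in WT TRF, where 20% were. In CryDKO TRF 2 genes passed, where 7.26% of all did. None passed in CryDKO AL (0.0402% of all genes; 2 with an unadjusted limma p under 0.05), in ReverbLDKO TRF (4%; 1), in ReverbLDKO AL (0.0301%; 1), in Bmal1LKO TRF (0.492%; 1) or in Bmal1LKO AL (0.0301%; 3). The test that rhythms differ between the 8 groups passed for 0 of 35 genes, where 1.96% of all genes passed, and 4 had an unadjusted limma p under 0.05. With only the groups compared in the fit, 0 of 35 genes were rhythmic in WT AL and 0 in WT TRF. The share of all genes in that fit is not given here, so these counts cannot be read as particular to the 35.

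In WT AL, F11 had the smallest p, with an amplitude of 0.57 ± 0.10 on the log2 scale and a fitted peak at ZT5.0 (limma adjusted p = 0.00069). Its libraries held 24.2 and 24.3 FPKM at ZT16 and 59.3 and 54.3 at ZT4, while the ZT8 pair was split at 30 and 76.1. Serpinf2 was rhythmic in both WT groups, with amplitudes of 0.68 ± 0.12 under TRF and 0.59 ± 0.12 under AL and peaks at ZT3.0 and ZT2.8 (limma adjusted p = 0.000506 and 0.00179). Mbl1 peaked at ZT21.1 (0.68 ± 0.16, limma adjusted p = 0.00636) and Plg at ZT5.1 (0.44 ± 0.10, limma adjusted p = 0.00745). These 4 genes, of different roles and given for their small p, peaked between late night and late morning. Not all of the 11 genes called in WT AL did. F5, named for its amplitude after its values were seen, had the largest of the 35 genes, 0.87 ± 0.22 with a fitted peak at ZT8.4 (limma adjusted p = 0.0141). Its highest values fell at ZT12 in both WT groups, 191 FPKM in the TRF library and 130.0 and 117 in the AL libraries, against 13.6 to 79.8 at the other times, so a single cosine describes it loosely.

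In WT TRF, Vtn (peak at ZT3.0), Proc (ZT2.9) and F9 (ZT16.3) passed besides Serpinf2, and none of these 3 did after the GC correction (limma adjusted p = 0.238 to 0.613). In CryDKO TRF, Cfi (0.32 ± 0.08, ZT4.3) and F13b (0.44 ± 0.12, ZT14.0) passed, and neither did without the CryDKO TRF library at ZT3; the count was 7 without ZT6 and 0 without ZT15. The WT TRF count was 10 without replicate 1 at ZT16, and 1 without replicate 1 at ZT4, replicate 2 at ZT12 or replicate 1 at ZT24. The WT AL count was 6 without the library numbered replicate 2 at ZT16, which had the highest FPKM sum, 2590.4 FPKM of C8g and 1018 of Mbl1, and 7 without replicate 1 at ZT4.

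**Figure D5:**
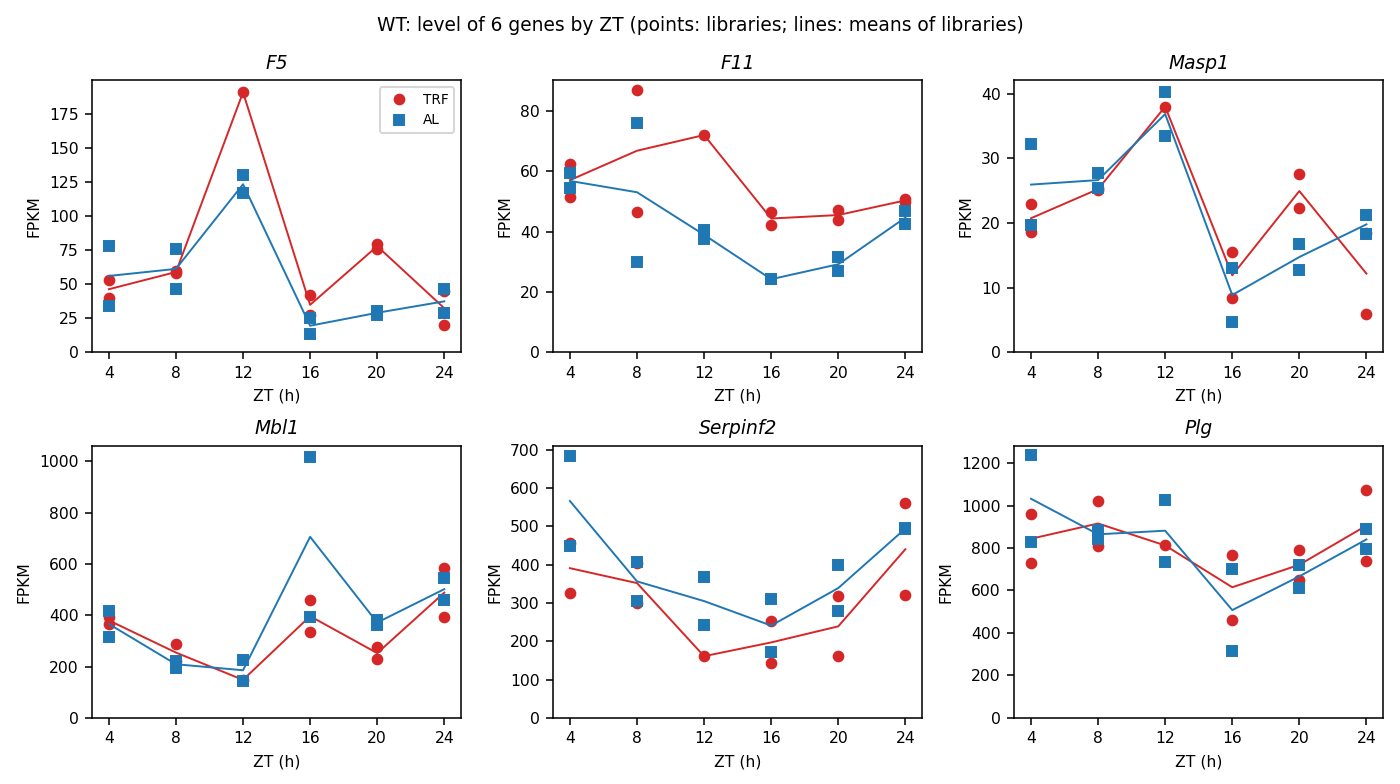
FPKM of 6 genes against ZT in hours in WT liver, TRF as red circles and AL as blue squares, points being libraries and lines their means. F5 and Masp1 reach their highest means at ZT12 under both feedings, and the AL value of Mbl1 at ZT16 in replicate 2, 1018 FPKM, stands apart.

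Other coagulation genes, from a list that holds none of the 35, also differed. Of 19 further coagulation genes tested, 6 rose and 0 fell under TRF in libraries labelled ReverbLDKO, where 1.09% and 2.25% of all genes did. These were the fibrinogen chain genes Fga (0.95 ± 0.25), Fgg (0.89 ± 0.23) and Fgb (0.74 ± 0.22), with Cpb2, which encodes a fibrinolysis inhibitor (0.71 ± 0.16), Kng2 and Hrg. The median of this list was 0.28, against -0.03 over all genes. In WT 8 further coagulation genes rose and 1 fell under TRF, where 28.6% and 35.5% of all genes did. The 19 further complement genes tested had a median of -0.11 in ReverbLDKO (0.04 after the GC correction), and in WT 9 of them rose and 9 fell.

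Some values carry limits of counting. The exons of Cfb and C2 overlap those of Gm20547 on the same strand and those of Klkb1 overlap Gm45753, so reads may be divided or shared. Masp2 overlaps Tardbp and Serpinc1 overlaps Zbtb37 on the opposite strand, and whether counting used strand is not known here. Over those bases the reads of each pair cannot be told apart.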

How the data were processed

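Liver mRNA was measured in 67 libraries, made with a stranded TruSeq mRNA kit from 1 ug of RNA per the labels' protocols. The authors deposited FPKM values, which are counts divided by exon length and library size. The submitters' processing notes name STAR, featureCounts, DESeq2 and GRCm38, with no versions. Depth was recovered from the steps of low values (up to 20 reads), of which 84 to 88% came out whole within 0.1 reads; it limits the precision of low genes. No count test was run, because the file holds no counts.

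One limma 3.58.1 fit (R 4.3.3) of log2(FPKM + 1) for 9958 genes, those averaging 1 FPKM or more, gave each of the 8 groups a level and a 24-h cosine and sine. Fold changes on this scale understate low genes. Contrasts were TRF minus AL within each genotype, mutant minus WT as the mean of both feedings, the interaction, and rhythm. P-values were Benjamini-Hochberg adjusted over all genes tested, with a threshold of 0.05. The fit was tested on simulated data. The correction for GC content and exon length took a smooth trend with 4 degrees of freedom out of each library, using GENCODE M21. Up to 6 genes a direction per level contrast and 4 per rhythm test, by size and by p, were given in full, and up to 4 of each list of further genes. The members, gene lists, tests and most alternatives were chosen with earlier results of these data known. Alternatives were another pseudocount (0.1), no filter, other scalings, the GC correction, fits of only the groups compared, no time terms, a WT replicate block, and left-out libraries. The result of 1 further complement gene is not reported here.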

Additional observations from a re-analysis of the deposited data

Results flagged for a closer look

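In 14 of 210 sets of a gene and a group with 6 or 8 libraries, 1 library lay apart from the others of its group by Dixon's criterion. Chance flags about 1 in 20 groups. The CryDKO TRF library at ZT3 accounted for 6 of the 14. It was high for Serping1 (988 FPKM, next 424), Vtn (2629, next 1496), F9 (168, next 131) and Pros1 (44.8, next 21.8), and low for C8g (117 FPKM, next 180.4) and Klkb1 (1.59, next 5.46). The ReverbLDKO TRF library at ZT18 was low for C8g (175 FPKM, next 237) and Klkb1 (4.87, next 8.25). These are libraries with high Saa1, at 41908 and 16119 FPKM, and the part of the acute-phase state in these values was not tested.

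Single libraries also stood apart for 6 other genes. They were high for Mbl1 in Bmal1LKO AL at ZT4 (513 FPKM, next 362), C4b in Bmal1LKO AL at ZT8 (259, next 167), F11 in CryDKO TRF at ZT6 (67.2, next 46.8), F13b in CryDKO AL at ZT9 (154, next 129.7) and Plg in CryDKO AL at ZT21 (1259.7, next 1139). The library was low for F5 in ReverbLDKO AL at ZT9 (57.7 FPKM, next 74.6).

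The feeding difference differed between genotypes for 21 of the 35 genes by the limma F test, where 47.0% of all genes did. After the GC correction 11 of the 21 did not pass: C4b, C8a, Serping1, Vtn, F7, F9, Proc, Pros1, Klkb1, Serpind1 and Serpinf2. The adjusted p-values before correction follow. In complement they were Masp2 (0.000544), C1ra (0.0018), Serping1 (0.0122), C4b (0.0214), C8a (0.0313) and Vtn (0.000106). Among the vitamin K-dependent proteins they were Proc (1.18e-05), F2 (7.18e-05), F10 (0.000107), F7 (0.000883), F9 (0.0024) and Pros1 (0.0315). Among the other clotting genes they were F12 (5.61e-10), F13b (0.000179), F11 (0.000569), Klkb1 (0.000994) and Kng1 (0.0383). For the inhibitors and plasminogen they were Serpinc1 (0.000206), Serpind1 (0.0056), Serpinf2 (0.00716) and Plg (0.0284).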

How the results depend on the processing

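The count of 12 genes higher under TRF in ReverbLDKO was 5 after scaling to the same sum of FPKM, 21 with only the groups compared, 7 without the 3 libraries high in Saa1 and 1 without ReverbLDKO AL ZT21 and ZT24, and 8 to 13 with 1 library left out. The 1 lower gene, Mbl2, became 0 under a pseudocount of 0.1, no filter, median-of-ratios scaling, the GC and length correction, no time terms and both of these exclusions, also with the GC correction without the Saa1 libraries; it became 2 with only the groups compared and was 0 to 1 with 1 library left out. In WT the GC correction gave 9 higher and 6 lower, and reversed F7 (0.204), Serpinf2 (0.214) and C4bp (-0.19). In Bmal1LKO 1 gene was higher under TRF with only the groups compared. Against WT, Bmal1LKO had 2 higher with median-of-ratios scaling, 14 with the same sum, 2 with only the groups compared and 4 without time terms, and 0 lower with the same sum and 2 with only the groups compared; 3 to 10 were higher with 1 library left out. ReverbLDKO had 3 lower with the same sum, 3 with the GC correction and 2 with the WT replicate block. The same sum reversed Masp2, at 0.019 in Bmal1LKO and 0.116 in ReverbLDKO; it moved the median of all genes by over 0.1, to -0.14 and -0.12 for feeding in ReverbLDKO and Bmal1LKO and to 0.16 to 0.21 for the genotypes. The interaction count was 13 with the same sum and 12 with the GC correction. Rhythmic genes in WT TRF numbered 1 with no filter, 2 with the GC correction and 0 with only the groups compared, and 1 to 10 with 1 library left out; in WT AL 17, 18 and 0 with the same sum, the GC correction and only the groups compared, and 6 to 14 with 1 left out; in CryDKO TRF 1, 0, 4 and 0 with the same sum, only the groups compared, the replicate block and no Saa1 libraries, and 0 to 7 with 1 left out. Rhythms differed for 0 to 2 genes with 1 library left out. The cause was not tested. Same-numbered WT libraries correlated at -0.287 to 0.626, so the numbers were not taken to pair them; the replicate block kept 27 of 27 WT feeding calls and 13 of 13 in ReverbLDKO, and of the calls against WT 12 of 21 in ReverbLDKO, 5 of 11 in Bmal1LKO and 15 of 19 in CryDKO, with 11, 5 and 12 genes higher. Depth limits low genes such as Cfb and Klkb1.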

Other observations

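Genes of the same cascades outside the 35 were also tested between genotypes. Of 19 further complement genes tested, 2 were higher and 6 lower in libraries labelled CryDKO than in WT, and of 19 further coagulation genes 5 were higher and 6 lower. Over all genes 34.4% were higher and 30.9% lower, so neither list had a larger share higher than all genes did. Cpb2, which encodes a fibrinolysis inhibitor, averaged 229.8 ± 129 FPKM in CryDKO (SD, n = 16) and 389.9 ± 97.0 in WT (n = 23), a difference of -0.84 ± 0.10 (limma adjusted p = 2.26e-09). F3, the tissue factor gene, averaged 2.06 ± 0.40 FPKM in CryDKO and 0.936 ± 0.395 in WT, a difference of 0.66 ± 0.08 (limma adjusted p = 6.27e-10). Both differences passed under TRF and under AL. Cfd, the factor D gene and an adipocyte marker, averaged 0.168 ± 0.196 FPKM in CryDKO under TRF and 0.356 ± 0.562 under AL, against 1.77 ± 2.28 and 16.6 ± 15.1 in WT. The adipocyte marker sum reached 79.4 FPKM in WT AL libraries.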
